A study of Mus musculus with 12 samples.

Results

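The 4 tumour libraries labelled BTPRZ-T were compared with the 4 libraries of normal colon labelled N. These 8 libraries were taken by their titles from the 12 in the series, and every gene was compared. BTPRZ-T tumours have the genotype BrafV600E;Tgfbr2-/-;Rnf43-/-/Znrf3-/-;p16 Ink4a-/-, so 5 genes were edited. N is wild type colon, which the series' text places next to engrafted tumours. The remaining 4 libraries, BT-T, are tumours of the genotype BrafV600E;Tgfbr2-/-, which lack the last 3 edits. They enter the fit to estimate the spread and give a second comparison, between the tumour genotypes. All 12 libraries carry the strain label NSG, an immunodeficient mouse that lacks mature T, B and natural killer cells. According to the series' title the tumours come from genetically edited colonic organoids, which are epithelial cultures, so any muscle, stroma and immune cells in a tumour library would come from the host. The labels give no age, no treatment, no clone number and no animal number, so the p-values measure the spread between these libraries. RNA was read as stranded poly(A) libraries, in single reads of 100 bases.

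The edits model the serrated route to colon cancer, in which an activating BRAF change starts the lesion in place of APC loss. BRAF with the V600E change signals to MEK and ERK without a growth factor. TGFBR2 is the receptor through which TGF-beta slows epithelial growth. RNF43 and ZNRF3 are membrane ubiquitin ligases that remove Frizzled WNT receptors, so cells without them respond more to WNT ligands that are present. p16 Ink4a, a product of Cdkn2a, inhibits CDK4 and CDK6 and holds cells in G1. Serrated lesions are known for gastric and fetal-like gene programmes and for loss of mature colonocyte features.

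Gene reads ran from 16478975 to 19191146 in N and from 15732004 to 21160052 in BTPRZ-T. N replicate 2 stood apart from the other N libraries before any comparison. It held reads of 14175 genes against 16152 to 16432, and ribosomal protein genes took 10.96% of its reads against 1.59% to 1.94%. For a length slope, each gene's log2 level was set against its mean over all 12 libraries. In N replicate 2 this relative level fell with transcript length. The slope was -0.79 log2 units per log2 of length, against 0.18 to 0.29 in the other N libraries. BTPRZ-T libraries had 13450 to 16438 genes, a range that passes the N libraries at both ends. Their ribosomal protein genes took 3.64% to 9.09% of reads and their slopes ran from -0.47 to 0.07, between N replicate 2 and the other N libraries. BT-T libraries had 16738 to 17266 genes, 1.86% to 2.73% of reads in ribosomal protein genes and slopes from 0.04 to 0.28. Gene counts of each list below are therefore also given without N replicate 2, and with the length trend removed where that moved a count of 4 or more by 1.5 times or more, and for some smaller counts. Sex markers were unevenly spread, with the Y-linked Ddx3y at 43.7, 37.3, 33.4 and 0.0675 CPM in N and 0.0645, 12.7, 0.11 and 0 CPM in BTPRZ-T, in the order of replicates 1 to 4. The X-inactivation RNA Xist stood at 1.09, 16.6, 2.84 and 1153 CPM in N and 964, 730.4, 1549 and 505 CPM in BTPRZ-T. Xist, Tsix and Y-linked transcripts were kept out of the largest changes below. Other X-linked genes, such as Ppef1, were not kept out, and the part of sex in any gene was not tested. CPM below are each gene's reads over the library's total, scaled by TMM factors (counts per megaread), and 4 values in a row follow replicates 1 to 4. The epithelial marker Epcam was at 1442, 1671, 1175 and 1406 CPM in N, and the intestinal factor Cdx2 at 301, 156, 299 and 190.4 CPM. In BTPRZ-T, Epcam was at 2102, 1853, 2378 and 1116 CPM and Cdx2 at 119.8, 179.6, 204 and 123 CPM, so the defining epithelial and intestinal markers were present in both groups.

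Of the 5 edited genes, Cdkn2a and Rnf43 were higher in BTPRZ-T, and Braf, Tgfbr2 and Znrf3 did not pass the test. A total over a whole gene does not check an edit, since a transcript with a small deletion or a base change is still counted, so these levels do not check the genotype labels. Cdkn2a, on chromosome 4 at 89274471 to 89294653 of GRCm38, encodes p16 Ink4a and, from a start further upstream, p19 Arf, and the deposited count covers both. It was at 0.23, 0.271, 0.354 and 0.27 CPM in N and at 31.4, 20, 25.6 and 18.8 CPM in BTPRZ-T. The groups were far apart, with a log2 fold change of 6.38 ± 0.38 (SE; edgeR adjusted p = 8.48e-06). The bases before its 2 annotated starts are shown because 1 count stands for both, from RefSeq on GRCm38.p6, minus strand, 5′ to 3′, up to the first annotated exon base. The upstream stretch, chr4:89294654-89294869, is the Arf start, with 78.7% G and C and 35 CG pairs. The downstream stretch, chr4:89282193-89282442, is the Ink4a start, with 60% G and C and 7 CG pairs.
Cdkn2a Arf start: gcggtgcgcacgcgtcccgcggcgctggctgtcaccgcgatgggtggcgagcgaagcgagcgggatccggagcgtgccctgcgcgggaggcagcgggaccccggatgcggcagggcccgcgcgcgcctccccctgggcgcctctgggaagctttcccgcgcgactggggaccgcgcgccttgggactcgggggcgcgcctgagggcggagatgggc
Cdkn2a Ink4a start: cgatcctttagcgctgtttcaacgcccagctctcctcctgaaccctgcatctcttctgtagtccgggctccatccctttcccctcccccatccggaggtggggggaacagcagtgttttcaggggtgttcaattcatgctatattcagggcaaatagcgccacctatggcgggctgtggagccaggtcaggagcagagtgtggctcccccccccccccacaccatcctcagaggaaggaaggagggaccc
Rnf43, on chromosome 11 at 87662722 to 87735539, was at 41.4, 19.3, 37.3 and 74.6 CPM in N and 82.9, 137, 193 and 169.6 CPM in BTPRZ-T, a log2 fold change of 1.76 ± 0.38 (adjusted p = 0.0112) with every tumour library above every N library. Rnf43 is itself a WNT target. Znrf3 (chromosome 11 at 5276324 to 5444847) was at 29.4, 1.9, 39.1 and 25.4 CPM in N and 16.7, 29.6, 37.3 and 30.1 CPM in BTPRZ-T, and N replicate 2 was far below the rest. Braf (chromosome 6 at 39603237 to 39725463) was at 54.6, 14.5, 69.3 and 75.6 CPM in N and 23, 31.7, 57.1 and 14.1 CPM in BTPRZ-T (adjusted p = 0.359), and without N replicate 2 it was lower in BTPRZ-T, at -1.08 ± 0.36 (adjusted p = 0.0369). Tgfbr2 (chromosome 9 at 116084293 to 116175360) was at 196, 71.1, 223 and 286 CPM in N and 149, 187, 192 and 271 CPM in BTPRZ-T, ranges that overlap. Stromal cells of the host carry an unedited Tgfbr2, and the share of its reads from them was not measured.

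**Figure D1:**
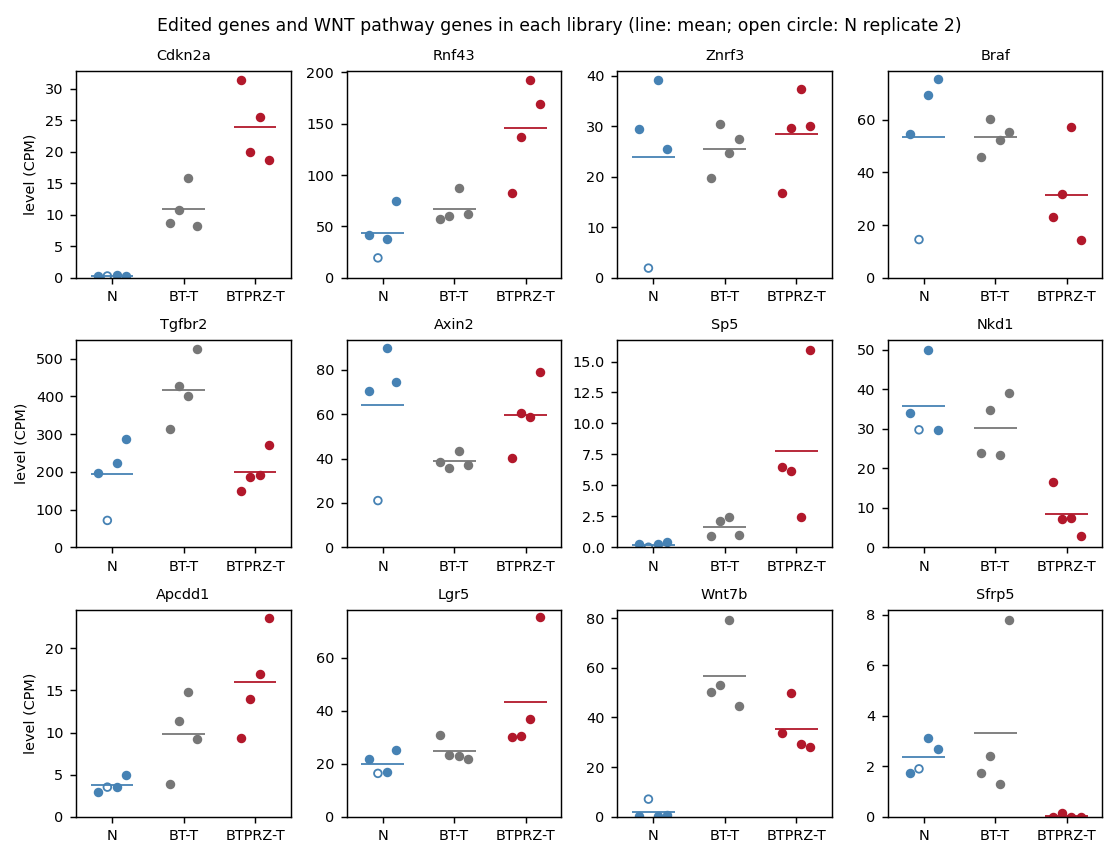
Level of the 5 edited genes and 7 WNT pathway genes in each library, in CPM from 0 on a linear axis, with a line at the mean of each group and an open circle for N replicate 2. BTPRZ-T and N do not overlap in Cdkn2a, Rnf43, Sp5, Nkd1, Apcdd1, Lgr5, Wnt7b and Sfrp5, while Axin2, Braf, Tgfbr2 and Znrf3 overlap.

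Over all genes, 1760 of the 14860 tested passed an edgeR quasi-likelihood test at a Benjamini-Hochberg adjusted p of 0.05, which is 11.8%. Of these, 841 (5.66%) were higher and 919 (6.18%) lower in BTPRZ-T, and the median log2 fold change over all tested genes was -0.10. Changes of 2-fold or more made up 774 of the higher and 825 of the lower calls. Without N replicate 2, 4855 of 15045 genes were called (32.3%), 2496 higher (16.6%) and 2359 lower (15.7%). Of the 1760 genes, 1749 were called in both fits, and 0 of them with the opposite sign. With N replicate 2 left out, the groups do not overlap in ribosomal protein share (1.59% to 1.94% in N, 3.64% to 9.09% in BTPRZ-T). Their length slopes do not overlap either (0.18 to 0.29 in N, -0.47 to 0.07 in BTPRZ-T). The part of these library differences in the calls of that fit was not tested. The 4 and 4 libraries did not overlap in 14.5% of tested genes, and with N replicate 2 left out in 38.2%. The share of calls that were higher was 47.8%, and 53.2% with upper quartile scaling.

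**Figure D2:**
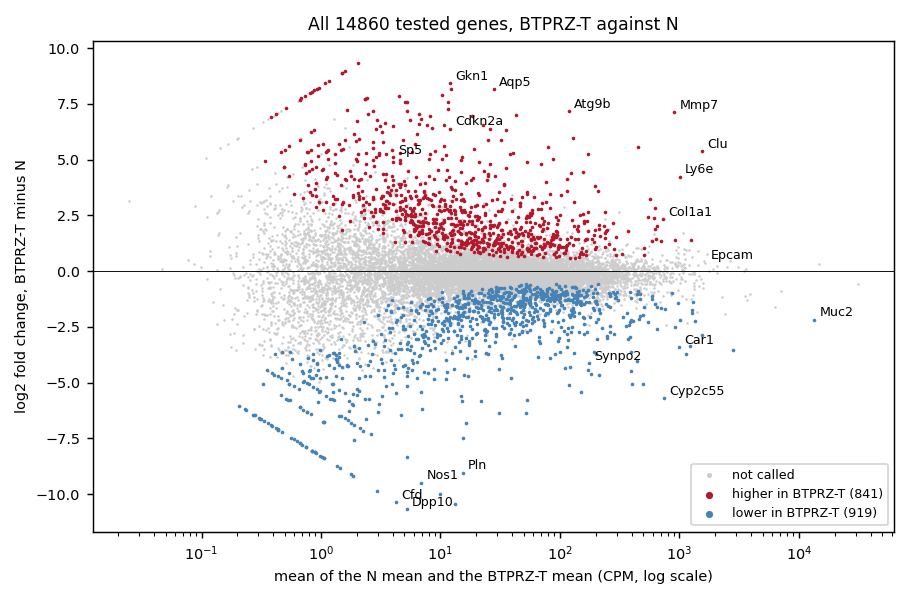
Log2 fold change of BTPRZ-T over N for each tested gene, against the mean of both group means in CPM on a log axis, with called genes in colour. The 841 higher and 919 lower genes lie on both sides at all levels, with Mmp7, Clu and Ly6e among abundant genes that rose and Cyp2c55 and Car1 among those that fell.

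The 12 largest rises are those among genes called with and without N replicate 2 that reach 5 CPM in the higher group. They also do not overlap between the groups and are neither predicted genes nor Xist, Tsix or Y-linked transcripts. Their separation is thus part of how they were chosen, as it is for the 12 largest falls, taken in the same way. The rises include the gastric genes Gkn1 and Aqp5, the foregut factor Pax9 and the protease Mmp7. Gkn1, a protein secreted by gastric surface cells (chromosome 6 at 87345650 to 87350942), was at 0, 0.135, 0.0591 and 0.0675 CPM in N and 66.1, 10.1, 5.51 and 13.6 CPM in BTPRZ-T. Aqp5, a water channel of gastric and salivary glands, was at 0.115, 0.135, 0.236 and 0.27 CPM in N and 113, 32.6, 23.1 and 54.9 CPM in BTPRZ-T. Pax9, a transcription factor of the foregut, was at 0.0576, 0.135, 0.118 and 0.27 CPM in N and 24.5, 14.4, 35.5 and 17.2 CPM in BTPRZ-T. Their log2 fold changes were 8.42 ± 1.70, 8.16 ± 1.01 and 7.26 ± 1.11 (adjusted p = 0.00768, 0.000559 and 0.00166). Mmp7, matrilysin, a protease of epithelial cells (chromosome 9 at 7692090 to 7699585), was at 4.49, 38, 6.73 and 2.63 CPM in N and 2178, 1584, 1206 and 2247 CPM in BTPRZ-T. It was among the most abundant of the genes that rose, at 7.12 ± 1.71 (adjusted p = 0.0185), though the call was lost without N replicate 1 or N replicate 3. Atg9b, of the family of autophagy membrane proteins (chromosome 5 at 24384181 to 24392143), was at 0.979, 3.18, 1.54 and 0.877 CPM in N and 227, 210.1, 287 and 218 CPM in BTPRZ-T, a log2 fold change of 7.16 ± 0.63 (adjusted p = 0.000105). Its 4 tumour values lay close together. Chit1, a chitinase, was at 0, 0.135, 0.177 and 0 CPM in N and 34.9, 13.9, 31.5 and 17.2 CPM in BTPRZ-T. Serpinb11, of the clade B serpins, was at 0, 0.406, 0 and 0.0675 CPM in N and 27.7, 23.6, 4.68 and 36.1 CPM in BTPRZ-T. Ly6d, a surface marker of squamous epithelium, was at 0.173, 2.1, 0.414 and 0 CPM in N and 159.7, 56.4, 98.5 and 29.3 CPM in BTPRZ-T. The log2 fold changes of these 3 were 8.17 ± 1.18, 7.60 ± 1.00 and 7.01 ± 1.00. Cd200r2, Khdc1a, Onecut3 and Ppef1 complete the 12, with log2 fold changes from 7.03 to 7.60. For Onecut3 the 4 N libraries held 3 reads in all and the ratio was 202 (95% counting interval 68.9 to 982), and for Ppef1 it was 188 (95% counting interval 51.8 to 1558). The Onecut3 call was lost without N replicate 3, and the Khdc1a call without N replicate 1 and without N replicate 3.

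The 12 largest falls include the muscle gene Pln, the neuronal genes Nos1 and Dpp10, the fat cell gene Cfd and 5 enzymes of detoxification. Pln, phospholamban, which regulates the calcium pump of muscle (chromosome 10 at 53337667 to 53345987), was at 34.1, 29.5, 45.3 and 13.8 CPM in N and 0.0645, 0.0957, 0.0551 and 0 CPM in BTPRZ-T, a log2 fold change of -9.03 ± 0.74 (adjusted p = 0.000105). Nos1, the nitric oxide synthase of inhibitory enteric neurons (chromosome 5 at 117781032 to 117958840), was at 4.61, 0.135, 33.3 and 17.1 CPM in N and 0, 0.0479, 0 and 0 CPM in BTPRZ-T. The 4 tumour libraries held 1 read of Nos1 between them. N replicate 2 was near the tumours, and the N to BTPRZ-T ratio was 1091 (95% counting interval 195 to 43142) (adjusted p = 0.00313). Dpp10, a subunit of neuronal potassium channels, had no read in BTPRZ-T and 7.77, 3.18, 20.2 and 10.7 CPM in N, so it was at least 276-fold lower, against 3 reads over the group. Cfd, the serine protease adipsin of fat cells, also had no read in BTPRZ-T and was at 9.96, 16, 4.02 and 3.78 CPM in N, at least 215-fold lower. Colec10, a collectin, was at 37.9, 12.9, 47 and 9.04 CPM in N and its ratio was 2157 (95% counting interval 387 to 85232). Car3, a carbonic anhydrase of muscle and fat, was at 17.4, 5.14, 13.4 and 5.74 CPM in N and its ratio was 418 (95% counting interval 115 to 3460.5). In these bulk libraries, fewer cells of a type and less RNA per cell cannot be told apart. Btnl1, a butyrophilin-like protein of the gut epithelium, was at 49.4, 3.05, 46.8 and 29.9 CPM in N and 0, 0.622, 0.496 and 0 CPM in BTPRZ-T, a log2 fold change of -6.81 ± 1.20 (adjusted p = 0.0035). The other 5 are enzymes of detoxification, the carboxylesterases Ces1f and Ces1g, the glucuronosyltransferases Ugt2b5 and Ugt2b36, and Cyp2c69. Ces1g was at 104, 33, 225 and 46.4 CPM in N and 1.03, 1.63, 1.38 and 0.917 CPM in BTPRZ-T. Cyp2c69 was at 20.4, 73.8, 16.7 and 13 CPM in N and 0, 0.431, 0.22 and 0 CPM in BTPRZ-T. All 5 fell, by log2 fold changes from -6.35 to -10.00, and the ratios of Ugt2b5 and Ugt2b36, at 1 to 2 tumour reads each, were 1539.6 (95% counting interval 276 to 60859) and 198 (95% counting interval 54.4 to 1644). These belong to families of near-identical copies whose shared reads were not counted, so the values of single members are uncertain.

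**Figure D3:**
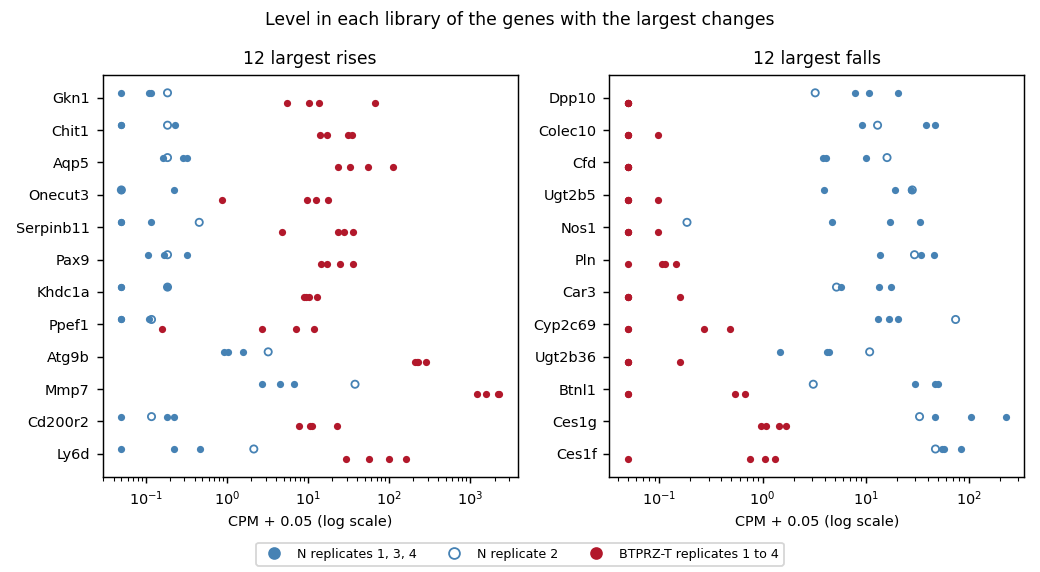
Level of the 12 genes with the largest rises and the 12 with the largest falls in each library, as CPM + 0.05 on a log axis, with an open circle for N replicate 2. The genes were chosen without overlap between the groups, so the gap is no finding. Tumour values of Atg9b lie close together and those of Ppef1 spread widely, and for Dpp10 and Cfd all 4 tumour libraries are at 0.

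Of 22 tested WNT target genes, 7 rose (31.8%) and 1 fell (4.55%), against 5.66% higher and 6.18% lower among all tested genes. These 2 shares over all genes are the background for every list below, with 16.6% and 15.7% without N replicate 2. Without N replicate 2 the counts were 7 higher and 3 lower. A fall count near or under the background is not read as a result about the list. Here and below, most genes named from a list are its members of lowest adjusted p. Their lack of overlap between the groups is thus partly set by that choice. The median log2 fold change over the list was 0.39, beside -0.10 over all tested genes. Sp5, a nuclear repressor that WNT signalling turns on, rose most. It was at 0.23, 0, 0.236 and 0.405 CPM in N and 6.45, 6.17, 2.42 and 15.9 CPM in BTPRZ-T, a log2 fold change of 5.11 ± 0.89 (adjusted p = 0.00335), and the groups did not overlap. The 250 bases before its start are shown because Sp5 rose most in the list. CTTTGA, or TCAAAG on the other strand, the core letters bound by TCF and LEF factors, is in capitals, from RefSeq on GRCm38.p6, plus strand, chr2:70474673-70474922.
Sp5: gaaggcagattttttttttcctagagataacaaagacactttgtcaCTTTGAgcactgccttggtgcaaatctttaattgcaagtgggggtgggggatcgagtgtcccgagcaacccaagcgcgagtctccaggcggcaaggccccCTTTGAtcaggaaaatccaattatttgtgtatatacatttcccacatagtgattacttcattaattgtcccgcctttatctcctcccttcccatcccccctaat
This stretch holds the letters in 2 places. Of 32851 windows of 250 bases before gene starts, 13.8% hold them on either strand. Among the 16 WNT target genes with a window, 3 hold them in at least 1 window, Lef1, Sp5 and Tnfrsf19. A gene can have several windows, so the share of windows and the count of genes are not in the same unit. A match is a description of the letters and not a binding site. Cd44, a hyaluronan receptor, was at 152, 151, 209 and 107 CPM in N and 363, 417, 535 and 449 CPM in BTPRZ-T, a log2 fold change of 1.51 ± 0.28 (adjusted p = 0.00415). Apcdd1, a membrane inhibitor of WNT, was at 2.94, 3.52, 3.54 and 4.93 CPM in N and 9.36, 14, 17 and 23.6 CPM in BTPRZ-T, at 2.10 ± 0.43 (adjusted p = 0.00837). Both were higher in every tumour library. Nkd1, which binds Dishevelled and restrains WNT, went the other way, at 33.9, 29.7, 50 and 29.6 CPM in N and 16.6, 7.13, 7.44 and 2.75 CPM in BTPRZ-T, -2.08 ± 0.45 (adjusted p = 0.0107). Axin2, the scaffold most used as a WNT readout, was at 70.5, 21, 90 and 74.4 CPM in N and 40.1, 60.6, 58.6 and 78.9 CPM in BTPRZ-T, with overlapping ranges (log2 fold change -0.10 ± 0.36, adjusted p = 0.909). Lgr5, the R-spondin receptor of crypt stem cells, was at 21.8, 16.4, 17 and 25 CPM in N and 30.1, 30.5, 37 and 75.2 CPM in BTPRZ-T. Its log2 fold change was 1.11 ± 0.31 (adjusted p = 0.0377), no libraries overlapped, and the call was lost without N replicate 1, N replicate 3 or BTPRZ-T replicate 4.

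Among secreted WNT antagonists, 2 of 9 tested members rose and 1 fell (3 and 1 without N replicate 2). Sfrp5, which binds WNT ligands, was at 1.73, 1.9, 3.13 and 2.7 CPM in N and 0, 0.144, 0 and 0 CPM in BTPRZ-T. BTPRZ-T held 3 reads in all, and the N to BTPRZ-T ratio was 61 (95% counting interval 20.5 to 299) (adjusted p = 0.00604). Wif1, another ligand trap, was at 2.19, 1.96, 3.72 and 6.75 CPM in N and 13.1, 12.6, 12.4 and 8.99 CPM in BTPRZ-T (adjusted p = 0.0192), and the call was lost without N replicate 1 or N replicate 3. Dkk2 rose by 2.27 ± 0.54 (adjusted p = 0.0182), and the call was lost without N replicate 1. Notum, a WNT deacylase, was at 1.27, 6.7, 1.77 and 0.945 CPM in N and 1.16, 2.54, 2.64 and 3.67 CPM in BTPRZ-T, and it did not pass the test (adjusted p = 0.96). Among WNT and R-spondin ligands, 3 of 12 tested members rose and 1 fell (4 and 1 without N replicate 2). Of all 21, 9 were too low to test. Ligands near 0 in N could pass the filter on low counts only through tumour libraries, so the rises are partly set by it. Wnt7b, an epithelial ligand, was at 0.115, 7.11, 0.118 and 0.54 CPM in N and 33.8, 49.9, 29.2 and 28 CPM in BTPRZ-T. It rose by 4.17 ± 0.99 (adjusted p = 0.0174), and by 7.12 ± 0.49 without N replicate 2, which alone among N libraries passed 1 CPM. Wnt11 rose by 3.09 ± 0.74 (adjusted p = 0.0181), and the call was lost without N replicate 1 or N replicate 3. Wnt2b, a mesenchymal ligand that feeds the crypt base, fell by 1.76 ± 0.44 on the log2 scale (adjusted p = 0.0213), and the call was lost without N replicate 1, N replicate 4, BTPRZ-T replicate 2 or BTPRZ-T replicate 3. Rspo3, an R-spondin ligand that stabilises Frizzled receptors through LGR receptors and RNF43 or ZNRF3, had 412 reads in N and 667 in BTPRZ-T over the 4 libraries of each, and did not pass the test (log2 fold change 0.34, adjusted p = 0.784).

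Crypt stem cell markers were called in both directions, with 6 higher and 2 lower of 20 (8 higher and 2 lower without N replicate 2, and 9 and 2 with the length trend removed) and a median of 0.49. Clu, clusterin, the mark of revival stem cells after injury (chromosome 14 at 65968483 to 65981547), was at 34.8, 89.1, 48.4 and 117 CPM in N and 3435, 2702, 3349 and 2544 CPM in BTPRZ-T, a log2 fold change of 5.38 ± 0.66 (adjusted p = 0.000559). Smoc2, a matrix protein of the crypt base, was at 40.8, 94.9, 34.6 and 63.7 CPM in N and 257, 231, 376 and 251 CPM in BTPRZ-T, at 2.25 ± 0.32 (adjusted p = 0.00116). Both were higher in every tumour library. Aqp4, a water channel of crypt base cells, was at 938, 599, 856 and 626 CPM in N and 53.6, 47, 14.1 and 20.3 CPM in BTPRZ-T, -4.48 ± 0.50 (adjusted p = 0.000342), a fall in every tumour library. Ascl2 and Sox9, transcription factors of the stem and progenitor zone, had log2 fold changes of -0.46 and -0.07 and did not pass the test.

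ERK pathway output genes were called in 1 direction, with 9 of 28 higher and 0 lower, a median of 0.90, and 13 and 1 without N replicate 2. Without N replicate 4, 14 were higher. Etv4, an ETS factor that ERK induces, was at 21.1, 14.4, 19.2 and 42.8 CPM in N and 85.2, 90.8, 87.5 and 89.9 CPM in BTPRZ-T, at 1.86 ± 0.31 (adjusted p = 0.00282). Ier3, an immediate early gene, was at 7.54, 16.9, 6.38 and 12.2 CPM in N and 95.6, 58, 53.4 and 119.8 CPM in BTPRZ-T, at 2.92 ± 0.41 (adjusted p = 0.00106). Plaur, the urokinase receptor, was at 9.33, 18.3, 16.7 and 20.8 CPM in N and 50.7, 44.2, 50 and 59.6 CPM in BTPRZ-T, at 1.65 ± 0.25 (adjusted p = 0.00156). These 3 were higher in all 4 tumour libraries. Mmp10, a stromelysin, was at 1.04, 0.88, 0.886 and 0.54 CPM in N and 107, 38.1, 48.3 and 3.88 CPM in BTPRZ-T, at 5.86 ± 1.01 (adjusted p = 0.00304), and its tumour libraries spread widely. Dusp6, the ERK phosphatase used as a readout, was at 71.6, 65.2, 78.9 and 105 CPM in N and 98.8, 134, 197 and 140.5 CPM in BTPRZ-T. It rose by 0.83 ± 0.25 (adjusted p = 0.0498) with overlap, and the call was lost without N replicate 1, N replicate 3, BTPRZ-T replicate 2, BTPRZ-T replicate 3 or BTPRZ-T replicate 4. Of 14 EGF family ligands and ERBB receptors, 1 rose (7.14%) and 1 fell (7.14%), in both fits, which is near the background of 5.66% and 6.18%. With the length trend removed, 3 rose and 1 fell. Hbegf, a ligand that ERK induces, was at 20.1, 24.1, 18 and 19 CPM in N and 36.1, 42.4, 46.9 and 41.9 CPM in BTPRZ-T (adjusted p = 0.0107). Egf was at 13.6, 4.81, 14.9 and 10.9 CPM in N and 0, 0.431, 1.6 and 0 CPM in BTPRZ-T (adjusted p = 0.0204), and the call was lost without N replicate 1, N replicate 3 or BTPRZ-T replicate 2.

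Of 17 TGF-beta ligands, receptors and SMADs, 2 rose and 2 fell (2 and 6 without N replicate 2). Tgfb1, a ligand, was at 13.3, 10.8, 19.6 and 23.6 CPM in N and 72.6, 82, 53.8 and 179.5 CPM in BTPRZ-T, at 2.53 ± 0.39 (adjusted p = 0.00182). Ltbp2, a matrix protein of the latent TGF-beta binding family, was at 1.27, 14.2, 2.36 and 1.55 CPM in N and 50.5, 108, 22.1 and 361 CPM in BTPRZ-T, at 4.81 ± 1.00 (adjusted p = 0.00922). Both were higher in every tumour library. Smad4, the shared partner of receptor SMADs, was at 181, 158, 183 and 211 CPM in N and 125, 87.8, 82.7 and 93 CPM in BTPRZ-T, a fall of less than 2-fold, -0.91 ± 0.21 (adjusted p = 0.013), with no overlap. Smad6, an inhibitory SMAD, was at -1.39 ± 0.34 (adjusted p = 0.0184), and the call was lost without N replicate 1 or N replicate 3. Of 19 TGF-beta response genes, 3 rose and 1 fell (7 and 2 without N replicate 2). Tgif1, a SMAD corepressor, was at 49.5, 39.9, 47.1 and 43.1 CPM in N and 115, 108, 114 and 114 CPM in BTPRZ-T, at 1.33 ± 0.18 (adjusted p = 0.000903), and the 4 tumour values were nearly equal. Pmepa1, a TGF-beta target that feeds back on SMADs, was at 44, 45, 47.7 and 117 CPM in N and 180.3, 191, 195 and 167 CPM in BTPRZ-T, at 1.53 ± 0.33 (adjusted p = 0.0111). Tspan2 was at -1.67 ± 0.30 (adjusted p = 0.00415). The list overlaps with stromal genes, whose levels are given below, and their part in it was not tested.

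Of 28 cell cycle and replication genes, 0 were called by edgeR, and 2 higher and 0 lower had an unadjusted p under 0.05, while DESeq2 called 1 higher and 0 lower and limma voom 0 and 0. Without N replicate 2, edgeR called 3 higher and 0 lower. Mki67, the proliferation antigen, was at 259, 88.1, 506 and 193 CPM in N and 93.9, 218, 216 and 167 CPM in BTPRZ-T (log2 fold change -0.59 ± 0.44, adjusted p = 0.459). Mcm4, a subunit of the replicative helicase, was at 51.1, 31.1, 46.7 and 44.5 CPM in N and 53, 84.3, 58.6 and 73.2 CPM in BTPRZ-T (adjusted p = 0.0949). Of 14 CDK inhibitors and G1 regulators, 2 rose and 2 fell (4 and 2 without N replicate 2, and 4 and 2 with the length trend removed). Besides Cdkn2a, Ccnd1, cyclin D1, was at 134, 44.9, 151 and 114 CPM in N and 205, 335, 254 and 316 CPM in BTPRZ-T, at 1.32 ± 0.34 (adjusted p = 0.0246), and the call was lost without N replicate 4, BTPRZ-T replicate 2 or BTPRZ-T replicate 4. Cdkn1c, the inhibitor p57, was at 14.3, 10.8, 11 and 17.5 CPM in N and 3.55, 2.54, 2.97 and 5.63 CPM in BTPRZ-T, -1.86 ± 0.40 (adjusted p = 0.0108), a fall in every tumour library. Of 20 p53 target genes, 6 rose and 0 fell (7 and 0 without N replicate 2, and 9 and 0 with the length trend removed), with a median of 0.58. Eda2r, a death receptor induced by p53, was at 6.16, 4.47, 8.27 and 6.01 CPM in N and 28.1, 22.5, 31.7 and 27.1 CPM in BTPRZ-T, at 2.13 ± 0.28 (adjusted p = 0.000684). Tnfrsf10b, the TRAIL receptor, was at 9.67, 14, 13.5 and 12.7 CPM in N and 27.7, 28.2, 37 and 30.2 CPM in BTPRZ-T (adjusted p = 0.00335). Bax and Phlda3 rose by 1.59 ± 0.35 and 1.96 ± 0.39 (adjusted p = 0.0125 and 0.00678). All 4 were higher in every tumour library. Of 9 mismatch repair genes, 0 were called by edgeR, and 1 higher and 1 lower had an unadjusted p under 0.05, while DESeq2 called 1 higher and 1 lower and limma voom 0 and 0. Without N replicate 2, edgeR called 1 higher and 0 lower of these 9.

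Genes of the mature absorptive colonocyte fell. Of 39 tested members 21 were lower and 0 higher (25 and 0 without N replicate 2), with a median log2 fold change of -2.28. The summed level of the list ran from 24219.8 to 29118 CPM in N and from 8068 to 20405 in BTPRZ-T. Cyp2c55, a cytochrome P450 of the colon surface (chromosome 19 at 39007019 to 39042693), was at 1518, 1197, 1886 and 1215 CPM in N and 25.2, 21.7, 54.3 and 11.3 CPM in BTPRZ-T, -5.69 ± 0.62 (adjusted p = 0.000299). Slc26a3, the chloride and bicarbonate exchanger, was at 896, 263, 762 and 1421 CPM in N and 55, 59.7, 45.7 and 45.1 CPM in BTPRZ-T, -4.02 ± 0.56 (adjusted p = 0.00102). Car1, a carbonic anhydrase (chromosome 3 at 14766216 to 14808368), was at 1152, 1587, 3244 and 1319 CPM in N and 197, 173, 168 and 149 CPM in BTPRZ-T, -3.41 ± 0.52 (adjusted p = 0.00166). No tumour library reached the lowest N library in these 3. Dpep1, a dipeptidase of the brush border, was at 419.9, 416, 459 and 346 CPM in N and 17.7, 12, 7.71 and 26.7 CPM in BTPRZ-T, -4.68 ± 0.44 (adjusted p = 0.000112). Slc5a8, which carries short-chain fatty acids, was at 232, 223, 248 and 309.9 CPM in N and 57.2, 40.2, 23.6 and 29.7 CPM in BTPRZ-T, -2.75 ± 0.32 (adjusted p = 0.000401). Krt20, a keratin of surface cells, was at 1019, 349.7, 792 and 788 CPM in N and 282, 758, 1081 and 85.1 CPM in BTPRZ-T and did not pass the test (adjusted p = 0.738). Its tumour libraries spread over more than the whole N range.

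Of 22 goblet cell genes, 4 were lower and 0 higher. These became 7 lower and 0 higher with the length trend removed, 8 lower and 1 higher without N replicate 2, and 2 lower without N replicate 1, N replicate 3, BT-T replicate 2, BT-T replicate 4, BTPRZ-T replicate 1 or BTPRZ-T replicate 2. The summed level of the list was 30074 to 61318 CPM in N and 12873 to 17020.2 in BTPRZ-T. Atoh1, the factor that sets secretory fate, was at 165, 123, 122 and 228 CPM in N and 38.2, 28.5, 32.4 and 31.9 CPM in BTPRZ-T, -2.29 ± 0.31 (adjusted p = 0.000885). Klk1, a kallikrein of goblet cells, was at 1538, 2069.8, 1718 and 1324 CPM in N and 447, 269.9, 198 and 540.0 CPM in BTPRZ-T, -2.19 ± 0.43 (adjusted p = 0.00677). Both fell without overlap. Muc2, the gel mucin of colonic mucus (chromosome 7 at 141690340 to 141754693), was at 17353, 3766, 48471 and 18350.3 CPM in N and 2166, 4528, 8860.4 and 3809.6 CPM in BTPRZ-T. The call was close to the threshold (-2.18 ± 0.65, adjusted p = 0.0472), N replicate 2 lay within the tumour range, and the call was lost without N replicate 1, N replicate 3, N replicate 4, BTPRZ-T replicate 1, BTPRZ-T replicate 2 or BTPRZ-T replicate 4. Of 22 enteroendocrine genes, 2 rose and 2 fell (2 and 3 without N replicate 2). Gcg, proglucagon, was at 195, 323, 116 and 209 CPM in N and 12.7, 13.9, 4.52 and 9.95 CPM in BTPRZ-T, -4.36 ± 0.47 (adjusted p = 0.000305). Cpe, a prohormone processing enzyme, was at 103, 53.1, 157 and 121 CPM in N and 259, 349, 352 and 334 CPM in BTPRZ-T, 1.57 ± 0.33 (adjusted p = 0.00937). The hormone genes went both ways, with Cck at 2.16 ± 0.58 (adjusted p = 0.03) and Sst at -2.98 ± 0.86 (adjusted p = 0.0421). For Cck the call was lost without N replicate 1, N replicate 3, N replicate 4, BTPRZ-T replicate 3 or BTPRZ-T replicate 4. For Sst the call was lost without N replicate 1, N replicate 3, N replicate 4, BTPRZ-T replicate 2 or BTPRZ-T replicate 3. Of 12 tested tuft cell genes 1 fell (8.33%, against 6.18% over all genes) and 0 rose, and 1 fell and 1 rose without N replicate 2. The gene that fell was Ptgs1, a cyclooxygenase, at -1.10 ± 0.26 (adjusted p = 0.0174), and the call was lost without BTPRZ-T replicate 2.

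Intestinal transcription factors fell where they were called, 6 of 21 lower and 0 higher (9 and 0 without N replicate 2), with a median of -0.59. Cdx1, a homeobox factor of intestinal identity, was at 299, 269, 271 and 339 CPM in N and 91, 96.7, 89.8 and 76.2 CPM in BTPRZ-T, -1.74 ± 0.23 (adjusted p = 0.000796). Its relative Cdx2 did not pass the test (-0.60 ± 0.29, adjusted p = 0.223) and was lower without N replicate 2 (-0.75 ± 0.26, adjusted p = 0.0422). Nr5a2, a nuclear receptor of crypt cells, was at 71.9, 34.6, 78.5 and 56.8 CPM in N and 12.3, 12.3, 17.7 and 6.72 CPM in BTPRZ-T, -2.31 ± 0.36 (adjusted p = 0.00197). Vdr, the vitamin D receptor, was at 558, 73.2, 532 and 609 CPM in N and 62.5, 79.7, 121 and 54.6 CPM in BTPRZ-T, -2.48 ± 0.53 (adjusted p = 0.01). Klf4, a factor of differentiated epithelium, was at 988, 216, 862 and 1099 CPM in N and 164, 222, 273 and 142 CPM in BTPRZ-T, -1.98 ± 0.43 (adjusted p = 0.0111). In the last 2, N replicate 2 lay among the tumours and the other 3 N libraries well above them.

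Of the 20 listed gastric genes, 7 had no read in N. The filter on low counts passed 10, so genes high in tumours alone had to differ to be tested. Of those 10, 5 rose and 0 fell (5 and 1 without N replicate 2). Not all members were near 0 in N, since the list summed to 105 to 227 CPM in N and 250 to 545 CPM in BTPRZ-T. Besides Gkn1 and Aqp5, Gkn3, a gastrokine of stomach glands, was at 0.173, 0.677, 0.354 and 0.472 CPM in N and 25.2, 10.3, 8.7 and 25.5 CPM in BTPRZ-T, 5.37 ± 1.03 (adjusted p = 0.0059). Vsig1, a junction protein of stomach epithelium, was at 9.21, 31.3, 6.38 and 16.3 CPM in N and 157, 115, 208 and 68.3 CPM in BTPRZ-T, 3.12 ± 0.54 (adjusted p = 0.00329). Psca, a surface antigen of gastric and bladder epithelium, was at 0.115, 0.948, 0.177 and 0.0675 CPM in N and 6, 6.75, 5.07 and 9.03 CPM in BTPRZ-T, 4.35 ± 0.77 (adjusted p = 0.00352). All tumour libraries exceeded all N libraries in these 3. Muc5ac, the mucin of gastric surface cells, had 2 reads in N and 19 in BTPRZ-T over the 4 libraries of each, and was too low to test. Anxa10, an annexin known as a marker of serrated lesions, had 8 reads in BTPRZ-T replicate 2 and 0 in every other library.

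Fetal-like and regeneration genes rose, 12 of 26 higher and 0 lower (17 and 0 without N replicate 2), with a median of 1.24. The summed level was 1653 to 5939.9 CPM in N, highest in replicate 2, and 11355 to 16322 in BTPRZ-T, so the groups did not overlap. Ly6a, the surface protein Sca-1 that marks fetal-like colon epithelium, was at 46.6, 265, 64.7 and 60.6 CPM in N and 1362, 1109, 721 and 928 CPM in BTPRZ-T, 3.24 ± 0.53 (adjusted p = 0.00245). Ly6e, of the same family (chromosome 15 at 74955051 to 74959905), was at 73.7, 126, 109 and 96.7 CPM in N and 1689.5, 1820.4, 1988 and 2170.1 CPM in BTPRZ-T, 4.24 ± 0.32 (adjusted p = 7.21e-05). Both stood apart in every library. Msln, mesothelin, was at 0.806, 5.75, 2.13 and 4.72 CPM in N and 131, 249, 60.6 and 186 CPM in BTPRZ-T, 5.55 ± 0.63 (adjusted p = 0.000384). Of squamous and basal keratin genes, 12 of 22 passed the filter, and 2 rose and 1 fell (5 and 1 without N replicate 2). As with gastric genes, members near 0 in N could pass the filter only through tumour libraries. Krt4, a keratin of squamous linings, was at 0.115, 0.203, 0.177 and 0.135 CPM in N and 3.68, 19.6, 12.8 and 25 CPM in BTPRZ-T, 6.55 ± 0.70 (adjusted p = 0.000272). Krt17, a basal keratin, was at 3.4, 37.7, 9.04 and 5.8 CPM in N and 1.61, 0.67, 0.0551 and 0.131 CPM in BTPRZ-T, -4.52 ± 1.03 (adjusted p = 0.0147), opposite in direction.

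Of 20 general epithelial genes, 1 was higher and 0 lower (1 and 1 without N replicate 2), with a median of 0.08. The 5% that rose is near the 5.66% over all genes and is not read as a result about the list. The one that rose was Krt18, a keratin of simple epithelium, at 506, 553, 467 and 478 CPM in N and 1143, 1563, 1625 and 963 CPM in BTPRZ-T, 1.40 ± 0.25 (adjusted p = 0.00333). Cdh1, E-cadherin, was at 1798, 531, 1694 and 2163 CPM in N and 1051, 1502, 2062 and 791 CPM in BTPRZ-T (adjusted p = 0.838), and N replicate 2 was the lowest of the 8. The summed level of the list was 13782 to 15618 CPM in N and 10112 to 20166 in BTPRZ-T, lowest in BTPRZ-T replicate 4. Of 20 tested epithelial defence genes, 2 rose and 2 fell (6 and 2 without N replicate 2). Lyz1, the lysozyme of Paneth cells, was at 1.38, 6.84, 2.13 and 1.01 CPM in N and 90.1, 44.9, 42.2 and 42.3 CPM in BTPRZ-T, 4.27 ± 0.82 (adjusted p = 0.00576), and its reads are uncertain because Lyz2 is nearly identical. Mptx1, a mucosal pentraxin, was at 142, 375, 53.8 and 99.8 CPM in N and 4.58, 13.2, 7.55 and 25.7 CPM in BTPRZ-T, -3.71 ± 0.71 (adjusted p = 0.00585).

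**Figure D4:**
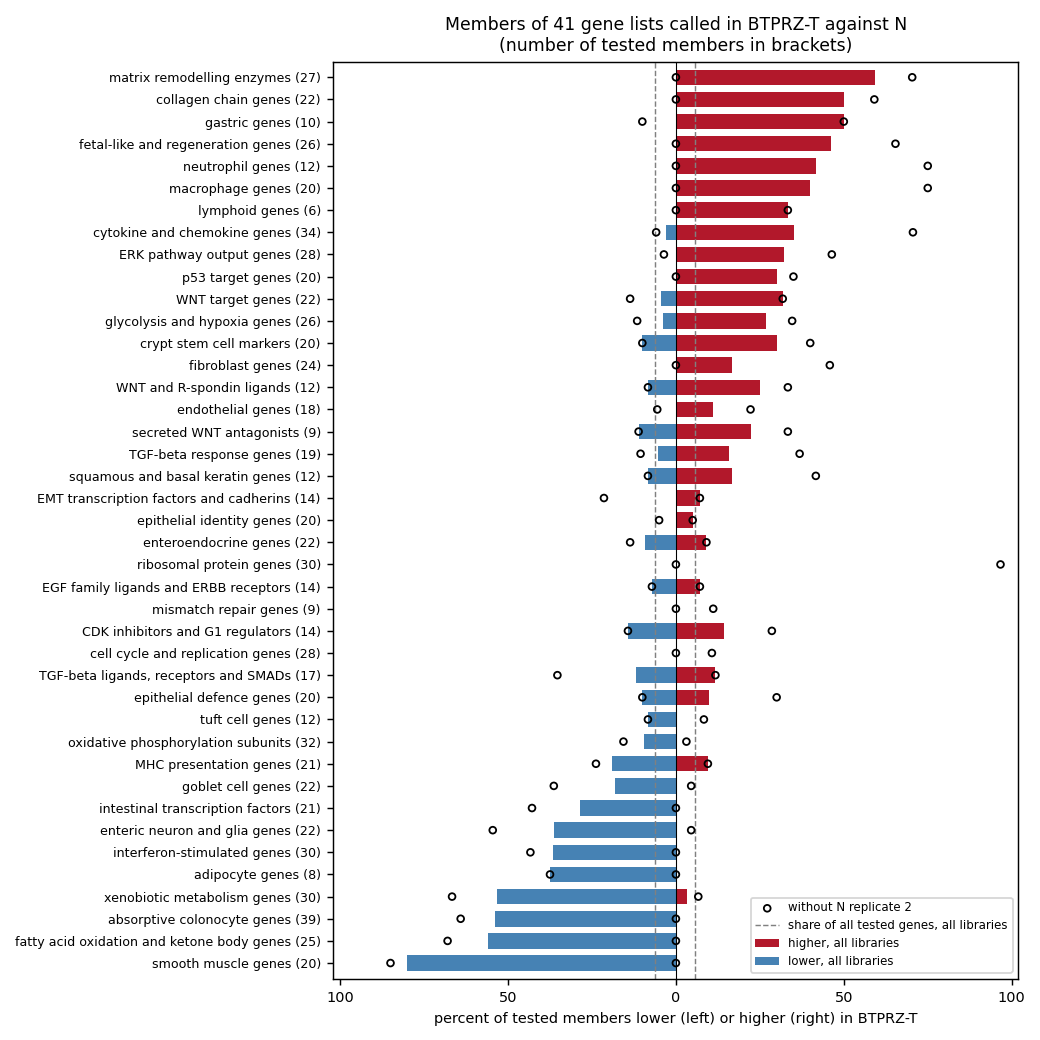
Share of the tested members of 41 gene lists called higher (right) or lower (left) in BTPRZ-T than in N. Bars are for all libraries, and circles for the fit without N replicate 2. Dashed lines mark the shares over all tested genes with all libraries. They are no background for the circles, whose fit called 16.6% of all tested genes higher and 15.7% lower. Matrix enzymes reach 16 of 27 higher and smooth muscle genes 16 of 20 lower, while ribosomal protein genes move from 0 to 29 of 30 when N replicate 2 is left out.

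Matrix genes rose. Of 27 matrix remodelling enzymes, 16 were higher and 0 lower (19 and 0 without N replicate 2), with a median of 1.78. Plat, tissue plasminogen activator, was at 5.76, 13.9, 9.22 and 11.5 CPM in N and 115, 74.9, 46.8 and 95.3 CPM in BTPRZ-T, 3.04 ± 0.33 (adjusted p = 0.000307). Adamts4, an aggrecanase, was at 2.88, 2.1, 5.02 and 4.86 CPM in N and 16.7, 18.1, 14.8 and 27.5 CPM in BTPRZ-T, 2.37 ± 0.33 (adjusted p = 0.00106). Mmp13, a collagenase, was at 1.04, 2.84, 1.3 and 2.09 CPM in N and 105, 45.8, 39.6 and 12.7 CPM in BTPRZ-T, 4.80 ± 0.74 (adjusted p = 0.00177). No library overlapped in these 3. Of 22 collagen chain genes, 11 rose and 0 fell, with a median of 1.45. The number higher came to 13 without N replicate 2, to 3 without N replicate 1, 7 without N replicate 3, BT-T replicate 1 or BT-T replicate 3, and 6 without BTPRZ-T replicate 2 or BTPRZ-T replicate 4. Col18a1, of basement membranes, was at 42.8, 55.2, 58.7 and 77.2 CPM in N and 195, 258, 366 and 220.0 CPM in BTPRZ-T, 2.15 ± 0.31 (adjusted p = 0.00126). Col1a1, of fibrillar collagen (chromosome 11 at 94936224 to 94953042), was at 163, 163, 289 and 354 CPM in N and 819, 840.0, 453 and 2749.8 CPM in BTPRZ-T. It rose by 2.33 ± 0.54 (adjusted p = 0.0161) with BTPRZ-T replicate 4 far above the rest, and the call was lost without N replicate 1. Col10a1, a network collagen, was at 0.403, 2.71, 0.354 and 0 CPM in N and 13.4, 138, 8.59 and 118 CPM in BTPRZ-T (adjusted p = 0.00629).

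Of 24 fibroblast genes, 4 rose and 0 fell. With N replicate 2 or BTPRZ-T replicate 3 left out 11 rose, with the length trend removed 6, and with N replicate 1 left out 2. Lox, which crosslinks collagen, was at 4.2, 38.2, 6.38 and 5.74 CPM in N and 125, 138, 46.1 and 299 CPM in BTPRZ-T, 3.48 ± 0.74 (adjusted p = 0.0104). Thy1, a fibroblast surface protein, was at 9.79, 18.1, 21.9 and 17.1 CPM in N and 99.7, 65.6, 18.6 and 278 CPM in BTPRZ-T (adjusted p = 0.0148), and BTPRZ-T replicate 3 overlapped with N. The summed level of the list was 1373 to 3024 CPM in N and 2090.1 to 10019.8 in BTPRZ-T, lowest in replicate 3 and highest in replicate 4. Of 14 EMT transcription factors and cadherins, 1 rose and 0 fell (1 and 3 without N replicate 2), and the 7.14% that rose is near the 5.66% over all genes. That 1 was Snai1, at 1.81 ± 0.48 (adjusted p = 0.0303), and the call was lost without N replicate 1, N replicate 3, N replicate 4, BTPRZ-T replicate 1 or BTPRZ-T replicate 4. Of 18 endothelial genes, 2 rose (11.1%, against 5.66% over all genes) and 0 fell (4 and 1 without N replicate 2, 3 and 0 with the length trend removed, and 4 higher without BTPRZ-T replicate 3). Cdh5, the cadherin of endothelial junctions, was at 33.9, 19.7, 29.2 and 36.5 CPM in N and 134, 158, 120.3 and 265 CPM in BTPRZ-T, 2.50 ± 0.37 (adjusted p = 0.0014). Pecam1, a general endothelial marker, was at 61.4, 36.3, 49.2 and 54.4 CPM in N and 58.8, 70.9, 50.2 and 109.9 CPM in BTPRZ-T and did not pass the test (adjusted p = 0.258).

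Smooth muscle genes fell, 16 of 20 lower and 0 higher (17 and 0 without N replicate 2), with a median of -2.28. The summed level was 11144 to 24687 CPM in N and 1237 to 6718 in BTPRZ-T. Synpo2, an actin-binding protein of muscle, was at 273, 120.5, 634 and 294 CPM in N and 23.3, 16.8, 11.5 and 23.4 CPM in BTPRZ-T, -4.14 ± 0.51 (adjusted p = 0.000559). Mylk, the kinase that starts smooth muscle contraction, was at 997, 655, 1783 and 1004 CPM in N and 166, 166, 117 and 284 CPM in BTPRZ-T, -2.60 ± 0.38 (adjusted p = 0.00133). Lmod1 and Ldb3, of the contractile apparatus, were at -2.75 ± 0.38 and -2.47 ± 0.31 (adjusted p = 0.00102 and 0.000559). All 4 fell without overlap. Of 22 enteric neuron and glia genes, 8 fell and 0 rose (12 and 1 without N replicate 2, and 5 lower without BTPRZ-T replicate 2). Snap25, of synaptic vesicle fusion, was at 15.5, 23.3, 25.9 and 25.7 CPM in N and 4.71, 3.06, 4.96 and 1.31 CPM in BTPRZ-T, -2.69 ± 0.41 (adjusted p = 0.00174). Stmn2, of growing axons, was at 8.63, 38.2, 19.4 and 13.3 CPM in N and 6.84, 2.54, 1.38 and 1.57 CPM in BTPRZ-T (adjusted p = 0.0126). Of 8 tested adipocyte genes 3 fell and 0 rose, in both fits, which were Cfd, Plin4 and Pck1. Plin4, a lipid droplet protein, was at 19.3, 19.6, 32.9 and 20.3 CPM in N and 0.839, 1.58, 1.1 and 3.67 CPM in BTPRZ-T, -3.66 ± 0.56 (adjusted p = 0.00163). Pck1, also a colonocyte enzyme of glucose synthesis, was at 202, 142, 203 and 232 CPM in N and 64.8, 37.3, 39.3 and 47.1 CPM in BTPRZ-T, -2.05 ± 0.27 (adjusted p = 0.000741). These levels move with group together with the epithelial lists, and the part of tissue composition in the epithelial results was not tested.

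**Figure D5:**
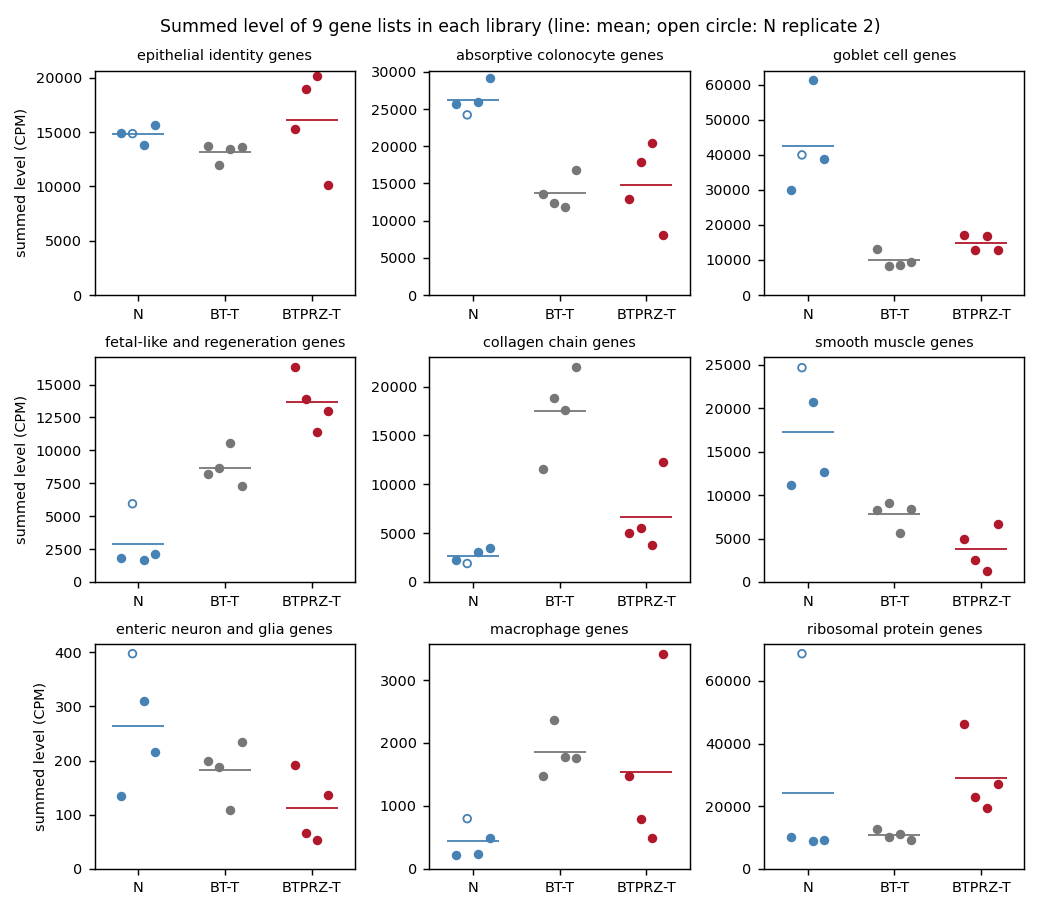
Summed level of 9 gene lists in each library, in CPM from 0 on a linear axis, with a line at the group mean and an open circle for N replicate 2. Smooth muscle is lower and fetal-like higher in all 4 BTPRZ-T libraries than in any N library, and the ribosomal protein sum of N replicate 2 lies above every other library.

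Of 20 macrophage genes, 8 rose and 0 fell. Leaving out N replicate 2 gave 15, leaving out N replicate 1 or BTPRZ-T replicate 4 gave 3, and leaving out N replicate 3 gave 2. The summed level was 217 to 796 CPM in N and 490.5 to 3407 in BTPRZ-T, ranges that overlap. Cx3cr1, a chemokine receptor of tissue macrophages, was at 6.33, 6.29, 10.1 and 5.8 CPM in N and 18.6, 21, 20.9 and 29.5 CPM in BTPRZ-T, 1.66 ± 0.27 (adjusted p = 0.00199). Cd68, a lysosomal protein of macrophages, was at 6.22, 15, 5.97 and 17.5 CPM in N and 59.3, 38, 18.6 and 325 CPM in BTPRZ-T, with replicate 4 highest, and the call was lost without N replicate 1 or N replicate 3. Trem2 and C1qa rose by 4.03 ± 0.94 and 2.37 ± 0.58 (adjusted p = 0.0164 and 0.0198), and for C1qa the call was lost without N replicate 3 or BTPRZ-T replicate 4. The list of neutrophil genes summed to 12.1 to 39.3 CPM in N and 39.4 to 135 in BTPRZ-T. Of the 17 members of this list in the files, 5 were too low to test. Members near 0 in N could pass the filter only through tumour libraries, so the direction of the counts is partly set by the filter. Of the 12 tested members, 5 rose and 0 fell (9 and 0 without N replicate 2). Without N replicate 3, N replicate 4 or BTPRZ-T replicate 1, 3 were higher. Csf3r, the G-CSF receptor, was at 1.21, 2.37, 0.709 and 1.62 CPM in N and 18.1, 8.19, 7.27 and 30.5 CPM in BTPRZ-T, 3.44 ± 0.59 (adjusted p = 0.00317). Ptprc, the leukocyte antigen CD45, was at 5.87, 1.35, 5.2 and 7.36 CPM in N and 9.94, 11.2, 9.64 and 22.9 CPM in BTPRZ-T and missed the threshold (adjusted p = 0.0705), though no library overlapped. Of the 18 lymphoid genes in the files, 6 passed the filter, and 8 had no read in N. Of the 6, 2 rose and 0 fell in both fits, and the limit given for neutrophil genes holds here too. The list summed to 29.4 to 45.3 CPM in N and 27.2 to 64 in BTPRZ-T. The members Cd3d, Cd3g, Cd8b1 and Ncr1 had no read in either group. Cd79b and Il7r rose (adjusted p = 0.0281 and 0.0464), from 0.173, 0.0677, 0 and 0 CPM to 1.87, 0.909, 0.11 and 2.84 CPM and from 0.345, 0.338, 0.118 and 1.48 CPM to 0.903, 3.21, 1.05 and 32 CPM. For Cd79b the call was lost without N replicate 3 or N replicate 4, and for Il7r the call was lost without N replicate 1, N replicate 3, BTPRZ-T replicate 2 or BTPRZ-T replicate 4.

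Of 34 cytokine and chemokine genes, 12 rose and 1 fell (24 and 2 without N replicate 2), with a median of 2.33. In N, 3 of the 34 had no read, and such genes could pass the filter only through tumour libraries. Cxcl16, a chemokine of epithelium and macrophages, was at 20.7, 21, 11.2 and 16.9 CPM in N and 216, 169.8, 115 and 244 CPM in BTPRZ-T, 3.41 ± 0.32 (adjusted p = 0.000112). Cxcl14 was at 18.4, 35.4, 28.1 and 44 CPM in N and 304, 311, 196 and 722 CPM in BTPRZ-T, 3.61 ± 0.46 (adjusted p = 0.000648). Il1a, an alarm cytokine, was at 0, 0.203, 0.0591 and 0.202 CPM in N and 12.3, 6.89, 3.08 and 3.8 CPM in BTPRZ-T, 5.78 ± 0.89 (adjusted p = 0.00169). These 3 were higher in every tumour library. Interferon-stimulated genes went the other way, 11 of 30 lower and 0 higher (13 and 0 without N replicate 2), with a median of -0.90. The number lower was 4 without N replicate 1 or BTPRZ-T replicate 1, 7 without N replicate 3, 6 without BTPRZ-T replicate 2 and 5 without BTPRZ-T replicate 4. Isg15, a ubiquitin-like protein, was at 92.7, 168, 64.5 and 42.3 CPM in N and 17.4, 17, 14.5 and 7.38 CPM in BTPRZ-T, -2.71 ± 0.45 (adjusted p = 0.00249). Rsad2, viperin, was at 76.2, 32.5, 55.2 and 79.2 CPM in N and 9.36, 13, 17.3 and 26.4 CPM in BTPRZ-T, -1.88 ± 0.36 (adjusted p = 0.00589). Ifit2 was at -1.56 ± 0.32 (adjusted p = 0.00797). All 3 were lower in every tumour library. Of 21 MHC presentation genes, 2 rose and 4 fell (2 and 5 without N replicate 2). The 4 became 1 without N replicate 1 or BTPRZ-T replicate 2, and 2 without N replicate 3, N replicate 4 or BTPRZ-T replicate 3. H2-K1, a classical class I chain, was at 177, 117, 167 and 154 CPM in N and 286, 295, 398 and 333 CPM in BTPRZ-T, 1.09 ± 0.23 (adjusted p = 0.01). H2-T3, the thymus leukaemia antigen of gut epithelium, was at 39, 34.3, 36.6 and 32.7 CPM in N and 5.16, 8.9, 9.97 and 10.5 CPM in BTPRZ-T, -2.04 ± 0.29 (adjusted p = 0.00104). Class I genes are near-identical copies, and their single values are uncertain.

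Lipid and detoxification enzymes fell. Of 25 fatty acid oxidation and ketone body genes, 14 were lower and 0 higher (17 and 0 without N replicate 2), with a median of -1.05. Bdh1, which makes beta-hydroxybutyrate, was at 187, 192, 221 and 183 CPM in N and 79.1, 60, 59.7 and 52.5 CPM in BTPRZ-T, -1.64 ± 0.20 (adjusted p = 0.000541). Ppara, the nuclear receptor of fatty acid oxidation, was at 54.2, 10.2, 81.4 and 24.2 CPM in N and 3.55, 6.41, 4.57 and 5.59 CPM in BTPRZ-T, -3.08 ± 0.54 (adjusted p = 0.00329). No tumour library reached N in either. Pdk4, which keeps pyruvate from the citrate cycle, was at -3.75 ± 0.60 (adjusted p = 0.00199). Of 30 tested xenobiotic metabolism genes, 16 fell and 1 rose (20 and 2 without N replicate 2), with a median of -1.76. Ces1d was at 62.5, 53, 94.5 and 34.4 CPM in N and 2.13, 5.74, 4.85 and 3.84 CPM in BTPRZ-T, -3.88 ± 0.46 (adjusted p = 0.000488). Of 26 tested glycolysis and hypoxia genes, 7 rose and 1 fell (9 and 3 without N replicate 2, and 4 higher without N replicate 3). Egln3, a prolyl hydroxylase that hypoxia induces, was at 34.8, 53.3, 26.6 and 59.3 CPM in N and 231, 244, 294 and 229 CPM in BTPRZ-T, 2.52 ± 0.31 (adjusted p = 0.000586). Car9, a carbonic anhydrase of hypoxic cells, was at 55.9, 36.1, 59.3 and 42.4 CPM in N and 139, 143, 193 and 77.6 CPM in BTPRZ-T, 1.51 ± 0.30 (adjusted p = 0.00738). Vegfa, an angiogenic ligand, was at 39.1, 29.1, 23.5 and 64.1 CPM in N and 141, 86.2, 93.8 and 109 CPM in BTPRZ-T (adjusted p = 0.0122). All 3 rose in every tumour library. Pfkfb4, a regulator of glycolytic flux, was at -1.37 ± 0.30 (adjusted p = 0.0124).

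The count of ribosomal protein genes moved most between fits. Of 30, 0 were called by edgeR with all libraries, and 1 higher and 0 lower had an unadjusted p under 0.05, while DESeq2 called 0 higher and 0 lower and limma voom 0 and 0. Without N replicate 2, 29 rose, and with the length trend removed 5 rose, against 8.12% higher and 8.09% lower over all genes in that fit. Rplp1 was at 526, 2336, 539.9 and 541 CPM in N and 2672, 1499, 1375 and 1897 CPM in BTPRZ-T. Rpl4 was at 1077, 2079, 954 and 957 CPM in N and 2489.7, 1983, 1854 and 2312 CPM in BTPRZ-T. In both, N replicate 2 lay in the tumour range and the other 3 N libraries below it. Of 32 oxidative phosphorylation subunits, 3 fell and 0 rose (5 and 1 without N replicate 2), and 19 fell with the length trend removed. Ndufs1, of complex I, was at 149, 145, 138 and 139 CPM in N and 68.1, 74.2, 70.7 and 71.1 CPM in BTPRZ-T, -1.01 ± 0.17 (adjusted p = 0.00293), with no overlap.

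BTPRZ-T was also tested against BT-T, which lacks the 3 further edits, in the same fit. The libraries differ in more than the edits, with ribosomal protein genes at 3.64% to 9.09% of reads in BTPRZ-T against 1.86% to 2.73% in BT-T and length slopes of -0.47 to 0.07 against 0.04 to 0.28. Of 14860 genes, 112 passed (0.754%), 23 higher (0.155%) and 89 lower (0.599%), and 2564 had an unadjusted p under 0.05. With the length trend removed, 291 genes passed, and the part of the ribosomal protein share in the calls was not tested. Without N replicate 2, 2714 passed (18%; 9.81% higher and 8.23% lower), and 0 passed without BT-T replicate 2, BT-T replicate 4 or BTPRZ-T replicate 3, where 1669, 1662 and 2509 genes had an unadjusted p under 0.05, so each call below was lost in those 3 fits. Car9 was at 30.7, 35.9, 51.2 and 28 CPM in BT-T, below the BTPRZ-T values above, a log2 difference of 1.92 ± 0.31 (adjusted p = 0.0285). Egln3 was at 61.9, 63.5, 124 and 82.6 CPM in BT-T, a log2 difference of 1.59 ± 0.30 (adjusted p = 0.0423). Cck was at 0.941, 1.36, 1.33 and 0.355 CPM in BT-T, a log2 difference of 3.82 ± 0.62 (adjusted p = 0.0285). These 3 were higher with the 5 edits than with 2. Sfrp5 was at 1.74, 2.39, 1.29 and 7.8 CPM in BT-T (adjusted p = 0.0351), and Slc5a8 at 180.5, 155, 88 and 142 CPM (log2 difference -1.91 ± 0.31, adjusted p = 0.0285). Cdkn1c was at 11.3, 17.5, 12.4 and 33 CPM in BT-T (log2 difference -2.33 ± 0.41, adjusted p = 0.0324). Synpo2 was at 101, 169, 88.8 and 200.4 CPM in BT-T (log2 difference -2.90 ± 0.48, adjusted p = 0.0285). These 4 were lower with the 5 edits in every library. Of the WNT target genes edgeR called 0, and 4 higher and 4 lower had an unadjusted p under 0.05, while DESeq2 called 2 higher and 4 lower and limma voom 0 and 1. Sp5 was at 0.906, 2.09, 2.41 and 1.01 CPM in BT-T, a log2 difference of 2.27 ± 0.76 (adjusted p = 0.165), Axin2 at 38.6, 35.5, 43.6 and 37.2 CPM (0.62 ± 0.36, adjusted p = 0.392) and Nkd1 at 23.8, 34.8, 23.4 and 39 CPM (-1.84 ± 0.44, adjusted p = 0.081). Cdkn2a was at 8.75, 10.7, 15.8 and 8.21 CPM in BT-T, between N and BTPRZ-T, and its difference from BTPRZ-T was 1.14 ± 0.29 (adjusted p = 0.0905). A p above 0.05 in this comparison does not show that the 2 tumour genotypes are alike.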

How the data were processed

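Poly(A) RNA of 12 libraries was read as stranded single reads of 100 bases. The authors deposited raw counts per gene, with 4 summary lines that were left out (reads on no gene were 9.58% to 14.7% of reads in N and BTPRZ-T). The submitters' processing notes name bcl2fastq 2.20, STAR 2.4.2a, edgeR 3.16.5, limma, HTSeq and mm10, with no roles. No source used here gives the annotation. Reads of the library's strand were taken, 15732004 to 21160052 per library in N and BTPRZ-T. Groups follow the labels.

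Counts of 24054 genes in all 12 libraries were filtered by group (filterByExpr), scaled by TMM factors and fitted with 3 group means by edgeR 4.0.16 (quasi-likelihood, robust, R 4.3.3), with Benjamini-Hochberg adjustment over 14860 genes at 0.05. SE is the log2 fold change over the root of F. Groups at 0 are given against a floor of 3 reads over the group, and ratios on 1 to 3 reads with exact 95% intervals, both for counting error only. Alternatives were other scalings and filters, DESeq2 1.42.0, limma 3.58.1 voom, the replicate block, a length correction and leaving out each library. The script was tested on simulated data. It called 4 of 67 changes of 2-fold, 43 of 67 of 4-fold and 53 of 66 of 8-fold. A gene that was not called may therefore still differ, above all by 2-fold or less. Positions are from GENCODE M21 (GRCm38) and promoters from RefSeq (GRCm38.p6).

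Named genes are the 12 largest rises and 12 largest falls called with and without N replicate 2 (at least 5 CPM in the higher group, no overlap, no predicted or sex-linked gene), up to 4 genes of lowest adjusted p per list, the 5 edited genes and a set of markers. Ascl2, Sox9, Rspo3 and Muc5ac fall outside this rule and were chosen after their values were seen. Some genes that the rule takes are not reported here by name, though list counts include them. The genes and the 41 lists were chosen with earlier results of these data known.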

Additional observations from a re-analysis of the deposited data

Results flagged for a closer look

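In 310 sets of 4 libraries, 43 held a library farther from the other 3 than Dixon's 95% critical value for 4 samples. Chance gives about 1 set in 20 for independent, normally distributed values. These sets share libraries, and many hold CPM of genes chosen on these data, some at 0, so that rate does not apply here. Of the 43, 27 were in N, 19 of them N replicate 2, and 16 were in BTPRZ-T. N replicate 2 stood out by 14175 genes with a read, by 10.96% of reads in ribosomal protein genes and by a length slope of -0.79. N replicate 1 stood apart from the other 3 libraries of its group in Onecut3 (0.173 CPM) and Col5a2 (51.3 CPM). N replicate 2 stood apart from the other 3 libraries of its group in Serpinb11 (0.406 CPM), Mmp7 (38 CPM), Cyp2c69 (73.8 CPM), Notum (6.7 CPM), Ly6a (265 CPM), Wnt7b (7.11 CPM), Ltbp2 (14.2 CPM), Phlda3 (21.1 CPM), Bax (51.3 CPM), Vdr (73.2 CPM), Psca (0.948 CPM), Krt17 (37.7 CPM), Col10a1 (2.71 CPM), Lox (38.2 CPM), Rpl4 (2079 CPM) and Rplp1 (2336 CPM). N replicate 4 stood apart from the other 3 libraries of its group in Xist (1153 CPM), Pmepa1 (117 CPM) and Il7r (1.48 CPM). N replicate 3 stood apart from the other 3 libraries of its group in Plin4 (32.9 CPM), Cx3cr1 (10.1 CPM) and Pdk4 (28 CPM). BTPRZ-T replicate 1 stood apart from the other 3 libraries of its group in Gkn1 (66.1 CPM) and Lyz1 (90.1 CPM). BTPRZ-T replicate 3 stood apart from the other 3 libraries of its group in Ugt2b36 (0.11 CPM) and Car3 (0.11 CPM). BTPRZ-T replicate 2 stood apart from the other 3 libraries of its group in Nos1 (0.0479 CPM), Ugt2b5 (0.0479 CPM), Colec10 (0.0479 CPM), Ddx3y (12.7 CPM), Sfrp5 (0.144 CPM) and Tgif1 (108 CPM). BTPRZ-T replicate 4 stood apart from the other 3 libraries of its group in Lgr5 (75.2 CPM), Col1a1 (2749.8 CPM), Ptprc (22.9 CPM), Wif1 (8.99 CPM), Cd68 (325 CPM) and Il7r (32 CPM). The values of Onecut3, Ugt2b36, Car3, Nos1, Ugt2b5, Colec10 and Sfrp5 in these sets rest on 3 reads or fewer beside libraries at 0.

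The difference between BTPRZ-T and BT-T passed the edgeR test for 16 of the named genes. As log2 differences, BTPRZ-T was higher in Cck (3.82), Egln3 (1.59) and Car9 (1.92) and lower in Pln (-5.12), Nos1 (-8.46), Colec10 (-5.41), Dpp10 (-8.18), Sfrp5 (-6.22), Smad4 (-0.99), Cdkn1c (-2.33), Slc5a8 (-1.91), Synpo2 (-2.90), Lmod1 (-2.02), Pck1 (-1.42), Plin4 (-2.73) and Ces1d (-2.17). Each of these calls was lost without BT-T replicate 2, BT-T replicate 4 or BTPRZ-T replicate 3, where 0 genes were called by edgeR and 1669, 1662 and 2509 had an unadjusted p under 0.05.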

How the results depend on the processing

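Of the 135 named genes called between BTPRZ-T and N, 111 kept call and direction in every fit that left out 1 N or BTPRZ-T library. Many of them were named for a low p, or for a call also without N replicate 2. Their count is therefore partly set by that choice and does not stand for all called genes. With N and BTPRZ-T alone, 34 of 132 calls were lost. Voom lost 18 of 135, a fold of 1.5 also 18, the replicate block 11, and leaving out 1 BT-T library 5 to 6. Of all 1760 genes called, leaving out 1 library in turn gave 1076 (without N replicate 1) to 4855 (without N replicate 2), and 1134 without N replicate 3. The 841 higher genes ran from 494 to 2496, and the 919 lower from 582 to 2359, with 594 without BTPRZ-T replicate 2. DESeq2 called 3048 (1266 higher, 1782 lower), and limma voom with sample quality weights 8211 (3980 and 4231). The compared groups alone gave 647 (330 and 317), and a test against a fold of 1.5 gave 1015 (510 and 505). Without the 3 libraries with the fewest genes, an alternative chosen after seeing the data, 5311 were called (2758 and 2553). For BTPRZ-T against BT-T, the 112 calls became 1217 with DESeq2, 266 with limma voom, 7734 with quality weights, 1568 with the compared groups alone, 8 at a fold of 1.5, 291 with the length trend removed and 3723 without the 3 libraries. Leaving out 1 library gave 0 (BT-T replicate 2, BT-T replicate 4 or BTPRZ-T replicate 3) to 2714 (N replicate 2). It gave 9 without BT-T replicate 1, 21 and 14 without BTPRZ-T replicates 1 and 2, 400 without BTPRZ-T replicate 4, 24 without N replicate 1 and 61 without N replicate 3. The cause of these shifts was not tested.

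With the replicate number as a block, 1160 genes were called between BTPRZ-T and N, 562 of them lower, and 1 between BTPRZ-T and BT-T. Same-numbered libraries did not deviate together (correlations from -0.30 to 0.21, and 1 of 4 N libraries correlated best with its own number). With 4 libraries per group and N replicate 2 apart from the rest, these correlations cannot decide whether the numbers pair the samples. The labels do not say that they do, so the pairing was not used.

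Among genes that did not pass the test, the log2 fold change turned sign as follows, and the cause was not tested. Tgfbr2 was at -0.18 with quality weights, -0.25 without the 3 libraries, -0.13 without BTPRZ-T replicate 4, and from -0.24 (N replicate 2) to 0.29 (N replicate 4) with 1 library left out. Znrf3 was at -0.039 with quality weights, and from -0.14 (N replicate 2) to 0.59 (N replicate 3) with 1 library left out. Axin2 was at 0.042 with voom, 0.12 with the length trend removed, 0.044 without BTPRZ-T replicate 1, and from -0.40 (N replicate 2) to 0.10 (N replicate 3) with 1 library left out. Notum was at 0.31 with voom, 0.88 with quality weights, 0.19 with the replicate block, 0.055 with the length trend removed, 1.01 without the 3 libraries, 0.14 without BTPRZ-T replicate 1, and from -0.37 (N replicate 4) to 0.91 (N replicate 2) with 1 library left out. Krt20 was at 0.14 without the 3 libraries. Cdh1 was at 0.0036 with the length trend removed, 0.0052 without BTPRZ-T replicate 4, and from -0.48 (N replicate 2) to 0.0103 (N replicate 4) with 1 library left out.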
